A study of Mus musculus with 20 samples.

Results

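The interleukin-1 family and inflammasome genes were followed in epididymal fat, the large visceral fat pad of male mice, after long feeding of a high-fat diet. The set held 10 listed genes: the cytokines Il1a, Il1b, Il18 and Il33, the receptor antagonist Il1rn, the receptors Il1r1, Il1r2 and Il1rl1, the sensor Nlrp3 and the protease Casp1. A gene was taken by its symbol in the platform annotation, with the probe set of highest mean over the 20 arrays where a gene had more than 1. A probe set was found for 9 of the 10 genes, 1 each, out of 22206 probe sets in all, of which 19572 carried 1 gene symbol. Il1rl1 was not measured here.

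RNA of the whole fat pad was measured on 1 array per mouse in 20 male C57BL/6 littermates. Every mouse carried 2 floxed copies of Tnf (TNF-αFlox/FLox), the gene of tumour necrosis factor. The 10 cre mice were LyzMcre+/-, so that Cre was driven by the lysozyme M promoter, which is active in macrophages and also in other myeloid cells such as neutrophils. The 10 wt mice were LyzMcre-/- and thus carried the floxed gene without Cre. All had chow until 10 weeks of age and then 18 weeks of a purified diet with 40% of calories from fat, and they were 28 weeks old at sampling. Each of 2 batches held 5 wt and 5 cre mice. The series names a comparison of cre with wt mice, and its text selects genes by an unadjusted p and a 1.5-fold difference.

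Interleukin-1α, interleukin-1β, interleukin-18 and interleukin-33 are cytokines of 1 family that act through related receptors and the adaptor MyD88. Interleukin-1β and interleukin-18 are made as inactive precursors and cut by caspase-1, which is activated in a protein assembly called the inflammasome, built on a sensor such as NLRP3. In obese fat, macrophages are a main source of interleukin-1β and of its natural antagonist, while interleukin-33 is made mostly by stromal and mesothelial cells and acts on regulatory T cells and group 2 innate lymphoid cells.

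Values are log2 signals of a probe set, so that a difference of 1 is a doubling. Signals of different probe sets do not tell which gene has more RNA. They were set against each other here only to gauge nearness to background. Array medians lay between 6.49 and 6.58, correlations between arrays between 0.934 and 0.989, and no arrays were identical. Tnf was at 5.78 to 7.80 in wt and 3.91 to 5.34 in cre mice, a log2 difference of −1.99 (limma adjusted p = 0.000822). On lists of other tissues, 3 mice stood apart. Wt replicate 4 was high in liver genes (14.6) and pancreas genes (7.51), and wt replicate 6 in seminal vesicle and epididymis genes (12.6). In the last list cre replicate 3 was high within its genotype (6.43). Liver signal was not confined to wt replicate 4, since cre replicates 10 and 4 were both at 12.6. The median of the liver list was 8.25 in wt and 10.4 in cre mice. All 9 liver genes had a higher mean in cre mice, with a list difference of 1.39 (95% interval −0.69 to 3.46). Leaving out the 3 mice keeps cre replicates 10 and 4, and so does not remove the liver signal. Adgre1, which encodes the macrophage surface protein F4/80, averaged 12.79 ± 0.86 (SD, n = 10) without Cre and 12.52 ± 1.02 (SD, n = 10) with it, a log2 difference of −0.28 (95% interval −1.06 to 0.51). In whole tissue, fewer macrophages and less RNA per macrophage cannot be told apart. Of the macrophage list 16 of 17 genes were measured, 14 of them lower in cre, and the list mean ranged from 11.7 to 13.6 in wt and from 10.5 to 13.0 in cre mice, with cre replicates 9 and 7 lowest of all.

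No measured member passed the test between genotypes. The largest difference was that of the receptor antagonist Il1rn, 1.76-fold lower in cre mice before any adjustment, followed by Casp1 and Il1b. With limma and adjustment over all 22206 probe sets, 0 of 9 members were called. Of all probe sets 0.0045% were, a single one, that of Tnf. An unadjusted p under 0.05 was reached by 1 of 9 members, Il1rn, and by 6.29% of all probe sets, or 3.05% counting those lower in cre mice. The mean was lower in cre mice for 8 of 9 members and for 49.3% of all probe sets. The median log2 difference was −0.16 over the members and 0.00 over all probe sets.

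**Figure D1:**
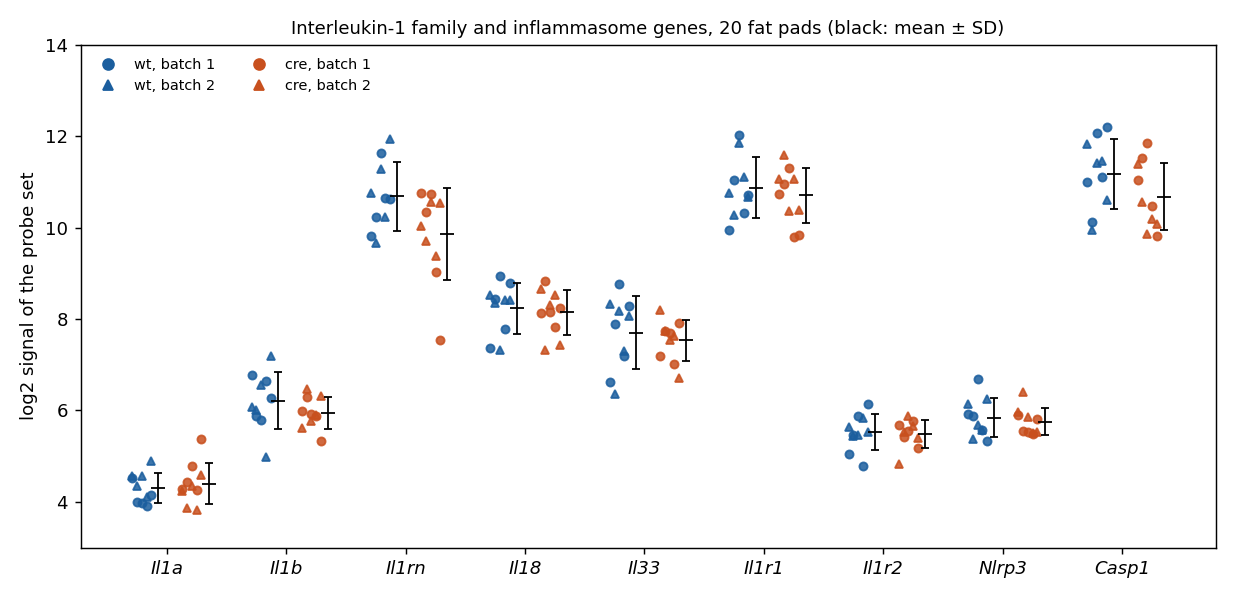
Log2 signal (vertical axis) of each measured interleukin-1 family and inflammasome gene in every fat pad, with circles for batch 1 and triangles for batch 2, and mean ± SD in black. The wt and cre mice overlap for every gene, and cre replicate 9 lies lowest for Il1rn, at 7.54.

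Among the cytokines, Il1a (chromosome 2, 129299609 to 129310186 in GRCm38) encodes interleukin-1α, which is active without cleavage by caspase-1. It had a lowest value of 3.92, a median of 4.25 and a highest of 4.90 in wt mice, and 3.82, 4.31 and 5.38 in cre mice. The groups overlapped over nearly their whole range, with cre replicate 9 on top. The signal was dim: 53.0% of the 1091 probe sets of olfactory receptors, genes for smell that serve here as a gauge of background, had a lower mean. The log2 difference was 0.09 (95% interval −0.28 to 0.46). It was 0.51 in batch 1 and −0.33 in batch 2, with exact two-sided permutation p = 0.0397 and p = 0.151 within the batches. The interaction of genotype with batch was −0.85 (SE 0.31, limma unadjusted p = 0.0134, adjusted p = 0.654), so a difference between batches was not called, for this or for any other member. The unadjusted p of this interaction was under 0.05 for 1 of 9 members and 7.41% of all probe sets.

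Il1b (chromosome 2, 129364569 to 129371164) encodes interleukin-1β, the main secreted product of the pathway. Its lowest, median and highest values were 4.97, 6.17 and 7.20 in wt and 5.32, 5.90 and 6.48 in cre mice. All cre values lay within the wt range, which wt replicates 8 and 10 stretched at its ends. The log2 difference was −0.27 (95% interval −0.72 to 0.19, adjusted p = 0.851), −0.39 in batch 1 and −0.14 in batch 2. An interval of this width holds both no difference and a level 1.5-fold lower in cre mice. The signal was above that of 98.4% of the olfactory receptor probe sets.

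Il18 (chromosome 9, 50554700 to 50581841) encodes interleukin-18, which is present as a precursor in many resting cells. Its lowest, median and highest values were 7.32, 8.41 and 8.95 in wt and 7.33, 8.20 and 8.83 in cre mice. Every cre value lay within the wt range, and the log2 difference was −0.09 (95% interval −0.56 to 0.38). Il33 (chromosome 19, 29925113 to 29960718) encodes interleukin-33, a nuclear cytokine released by damaged cells. It was at 6.37, 7.98 and 8.77 in wt and 6.71, 7.67 and 8.19 in cre mice, again with every cre value within the wt range. The SD was 0.79 in wt and 0.44 in cre mice, and the log2 difference was −0.17 (95% interval −0.73 to 0.40). The mesothelial list, a source of Il33 in visceral fat, differed by −0.43 (95% interval −1.11 to 0.25) on its mean, with 9 of 9 measured genes lower in cre mice. Its highest mouse was wt replicate 6 (9.37), set apart above for seminal vesicle and epididymis genes, followed by wt replicate 3 (8.30). The list difference without wt replicate 6 was not computed. The list of regulatory T cells and group 2 innate lymphoid cells, which respond to interleukin-33, differed by 0.005 (95% interval −0.25 to 0.26). Of its 10 genes 7 were measured, without Foxp3, Gata3 and Areg, and 3 were lower and 4 higher in cre mice. Ctla4, Klrg1, Il5 and Il13 had means of 4.21 to 5.40, under the 95th percentile of olfactory receptor probe sets (5.59). The brightest gene, Il7r, differed by −0.81 and Ctla4 by 0.47. The list mean therefore does not show that these cells were unchanged.

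Il1rn (chromosome 2, 24336860 to 24351491) encodes the antagonist that occupies the interleukin-1 receptor without signalling. Its lowest, median and highest values were 9.67, 10.63 and 11.93 in wt and 7.54, 10.18 and 10.76 in cre mice. The groups overlapped, with 7 of 10 cre mice within the wt range and 3 below the lowest wt mouse, at 7.54 (replicate 9), 9.03 (replicate 7) and 9.39 (replicate 8). In batch 1 the wt mean was 10.59 ± 0.67 (SD, n = 5) and the cre mean 9.68 ± 1.39 (SD, n = 5). In batch 2 these were 10.77 ± 0.89 (SD, n = 5) and 10.04 ± 0.51 (SD, n = 5). The difference was thus below 0 in each batch, −0.91 and −0.73.

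Over both batches the log2 difference of Il1rn was −0.82 (95% interval −1.57 to −0.07, SE 0.36). Its limma p was 0.0343 before and 0.781 after adjustment over all probe sets, and the exact two-sided permutation over the 63504 regroupings within batches gave p = 0.0541. Il1rn was the single member in the selection that the series text states, which took 1.04% of all probe sets and 0.662% as lower in cre mice. The unadjusted p rested on single mice: it was 0.05 or more, from 0.0525 to 0.0735, without any 1 of wt replicates 5, 6 and 10 or cre replicates 4, 7, 8 and 9, with differences of −0.78 to −0.56. Without cre replicates 9 and 7, the lowest in Adgre1, the difference was −0.41 (unadjusted p = 0.176). Without the 3 mice that stood apart in other tissues it was −1.005 (unadjusted p = 0.0183, adjusted p = 0.647). Neutrophils are another cell type of the LyzM lineage that makes the antagonist. The mean of 11 of 12 listed neutrophil genes differed by −0.06 (95% interval −0.31 to 0.19), with 5.40 to 6.41 in wt and 5.36 to 6.05 in cre mice. Cxcr2, Retnlg, Ngp, Camp, Ltf, Mmp8 and Elane lay at 3.87 to 5.41, under the 95th percentile of olfactory receptor probe sets (5.59). That mean thus holds much background. Of the brighter genes, Csf3r differed by −0.46, Mpo by −0.07, S100a9 by 0.04 and S100a8 by 0.22.

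Of the receptors, Il1r1 (chromosome 1, 40222480 to 40316201) encodes the signalling receptor for both forms of interleukin-1. Its lowest, median and highest values were 9.95, 10.73 and 12.03 in wt and 9.79, 10.84 and 11.59 in cre mice. Only cre replicates 7 and 9 lay below the lowest wt mouse, and the log2 difference was −0.16 (95% interval −0.71 to 0.38). Il1r2 (chromosome 1, 40084692 to 40125230) encodes the decoy receptor, which binds interleukin-1 without passing on a signal. It was at 4.79, 5.49 and 6.14 in wt and 4.83, 5.53 and 5.89 in cre mice, with all cre mice inside the wt range. The log2 difference was −0.03 (95% interval −0.37 to 0.31), and 93.5% of the olfactory receptor probe sets were dimmer. On chromosome 1 the receptor genes form a cluster in the order Il1r2, Il1r1, Il1rl2, Il1rl1, Il18r1 and Il18rap, between 40084692 and 40551707.

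Of the inflammasome members, Nlrp3 (chromosome 11, 59541569 to 59566955) encodes the sensor that responds to crystals, ion fluxes and saturated lipids. Its lowest, median and highest values were 5.33, 5.78 and 6.69 in wt and 5.49, 5.69 and 6.41 in cre mice. All cre values lay within the wt range, and the log2 difference was −0.08 (95% interval −0.43 to 0.26). Its signal was above 97.1% of the olfactory receptor probe sets. Casp1 (chromosome 9, 5298517 to 5307281) encodes caspase-1, the protease that cuts the precursors of interleukin-1β and interleukin-18. It was at 9.94, 11.26 and 12.21 in wt and 9.82, 10.52 and 11.84 in cre mice. The groups overlapped, with 2 cre mice just below the lowest wt mouse and 7 of 10 cre mice below the wt mean. The log2 difference was −0.49 (95% interval −1.13 to 0.14, unadjusted p = 0.118, adjusted p = 0.821), with −0.36 and −0.63 in batches 1 and 2. When the 3 mice that stood apart were left out it was −0.68 (unadjusted p = 0.0483, adjusted p = 0.673), and without cre replicates 9 and 7 it was −0.29 (unadjusted p = 0.365, adjusted p = 0.953).

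**Figure D2:**
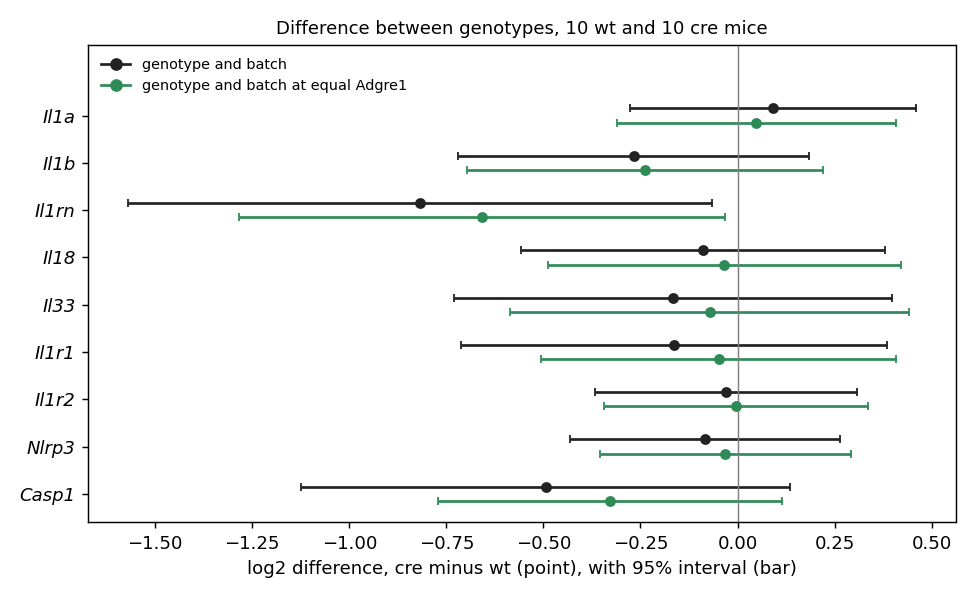
Log2 difference of cre minus wt mice (horizontal axis) with its 95% interval for each member, in the model with genotype and batch (black) and with Adgre1 added (green). The intervals of Il1rn, −1.57 to −0.07 and −1.28 to −0.03, lie below 0, and those of the other 8 members hold 0.

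At equal Adgre1, that is, with its log2 signal as a covariate beside genotype and batch, 0 of 9 members were called between genotypes, against 0.00901% of all other probe sets. The difference of Il1rn was then −0.66 (95% interval −1.28 to −0.03, unadjusted p = 0.0400, adjusted p = 0.749). That of Casp1 was −0.33 (95% interval −0.77 to 0.11), 0.08 in batch 1 and −0.70 in batch 2. Il1b stayed at −0.24 (95% interval −0.70 to 0.22), and the other 6 members lay between −0.07 and 0.05. The median of the members moved from −0.16 to −0.05. An unadjusted p under 0.05 was reached by 1 of 9 members and by 6.63% of all other probe sets. With the mean of the macrophage list in place of Adgre1, Il1rn differed by −0.53 (unadjusted p = 0.0866).

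Across the 20 mice each member was tested for a slope on Adgre1, and slopes were not compared between members. Casp1, Il1rn and Il1r1 rose with Adgre1, and Il1b, Il1a, Il1r2, Il18, Il33 and Nlrp3 did not pass the test. A slope, in log2 units of the gene per log2 unit of Adgre1 with genotype and batch in the model, was called for 3 of 9 members, all rising, against 8.82% of all other probe sets in either direction and 6.26% rising. An unadjusted p under 0.05 was reached by 5 of 9 members and 22% of the others, and the slope was positive for 8 of 9 members and 44.7% of the others. The median slope was 0.20 over the members and −0.02 over all.

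**Figure D3:**
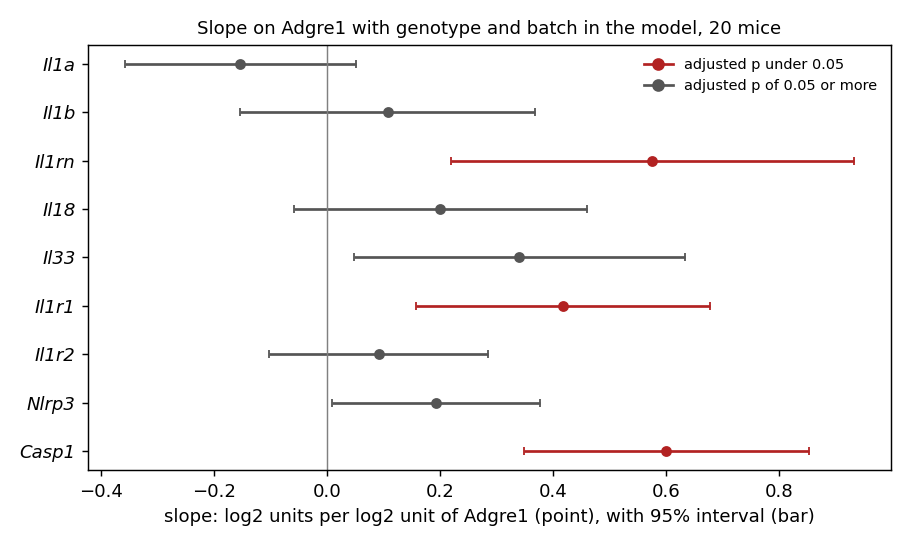
Slope of each member on Adgre1 (horizontal axis, log2 units per log2 unit) with its 95% interval, 20 mice. Casp1 at 0.60, Il1rn at 0.58 and Il1r1 at 0.42, in red, passed the adjusted threshold, and Il1a at −0.15 had the lowest slope.

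Casp1 had a slope of 0.60 (SE 0.12, limma adjusted p = 0.00241). It was 0.66 in batch 1 and 0.63 in batch 2, 0.71 in wt and 0.60 in cre mice, and 0.54 to 0.67 when any 1 mouse was left out, with the call kept in all 20 cases. In batch 2 alone the adjusted p was 0.570, and in wt mice alone 0.133. Pearson's r of the residuals was 0.756 and Spearman's rho 0.734 (permutation p = 0.00074 and 0.00147, unadjusted, 9 such relations). Without cre replicates 9 and 7, the mice farthest from the median of Adgre1, r was 0.709 and the slope 0.67 (adjusted p = 0.0295). Within batches r was 0.875 and 0.540.

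The slope of Il1rn was 0.58 (SE 0.17, limma adjusted p = 0.0380), but the batches differed in their values, 0.78 in batch 1 and 0.02 in batch 2. The interaction of Adgre1 with batch, a test chosen after those values were seen, was −0.75 (95% interval −1.55 to 0.06, unadjusted p = 0.0668, adjusted p = 0.881), and no member was called by it. Its unadjusted p was under 0.05 for 0 of 9 members and 5.67% of the other probe sets. Pearson's r was 0.601 and Spearman's rho 0.532 (permutation p = 0.0142 and 0.0335), with r of 0.822 in batch 1 and 0.0425 in batch 2. The relation rested on cre replicates 9 and 7, without which r was 0.303 and the slope 0.27 (adjusted p = 0.605). Leaving out 1 mouse ended the call for wt replicates 4 and 5 and cre replicates 1, 3, 7 and 9, with slopes of 0.37 to 0.58 and adjusted p of 0.0593 to 0.251. Without the 3 mice that stood apart the slope was 0.58 (adjusted p = 0.0626). The call was also lost after quantile normalization again (adjusted p = 0.0551) and with array weights (adjusted p = 0.0716).

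Il1r1 had a slope of 0.42 (SE 0.13, limma adjusted p = 0.0396), 0.46 in batch 1 and 0.31 in batch 2. Pearson's r was 0.612 and Spearman's rho 0.547 (permutation p = 0.0129 and 0.0274), with r of 0.721 and 0.383 within batches and 0.446 without cre replicates 9 and 7, where the slope was 0.35 (adjusted p = 0.348). The call was also lost in batch 1 alone (adjusted p = 0.0601) and in batch 2 alone (adjusted p = 0.807), after quantile normalization again (adjusted p = 0.0615) and with array weights (adjusted p = 0.0577). In wt mice alone the slope was 0.27 and in cre mice 0.56, and the interaction of genotype with Adgre1 was 0.26 (95% interval −0.26 to 0.79). The call was lost without any 1 of wt replicates 4, 5 and 7 or cre replicates 2, 3, 4, 7, 9 and 10, where slopes were 0.32 to 0.42 and adjusted p 0.0520 to 0.239. Some genes of fibroblasts and progenitors, cells that carry this receptor, moved with Adgre1 too. Of that list 3 of 8 measured genes had a called slope, all rising, against 6.26% of all other probe sets called rising. Dpp4 alone had a negative slope, −0.19 (limma adjusted p = 0.58). The part of these cells in the result was not tested.

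**Figure D4:**
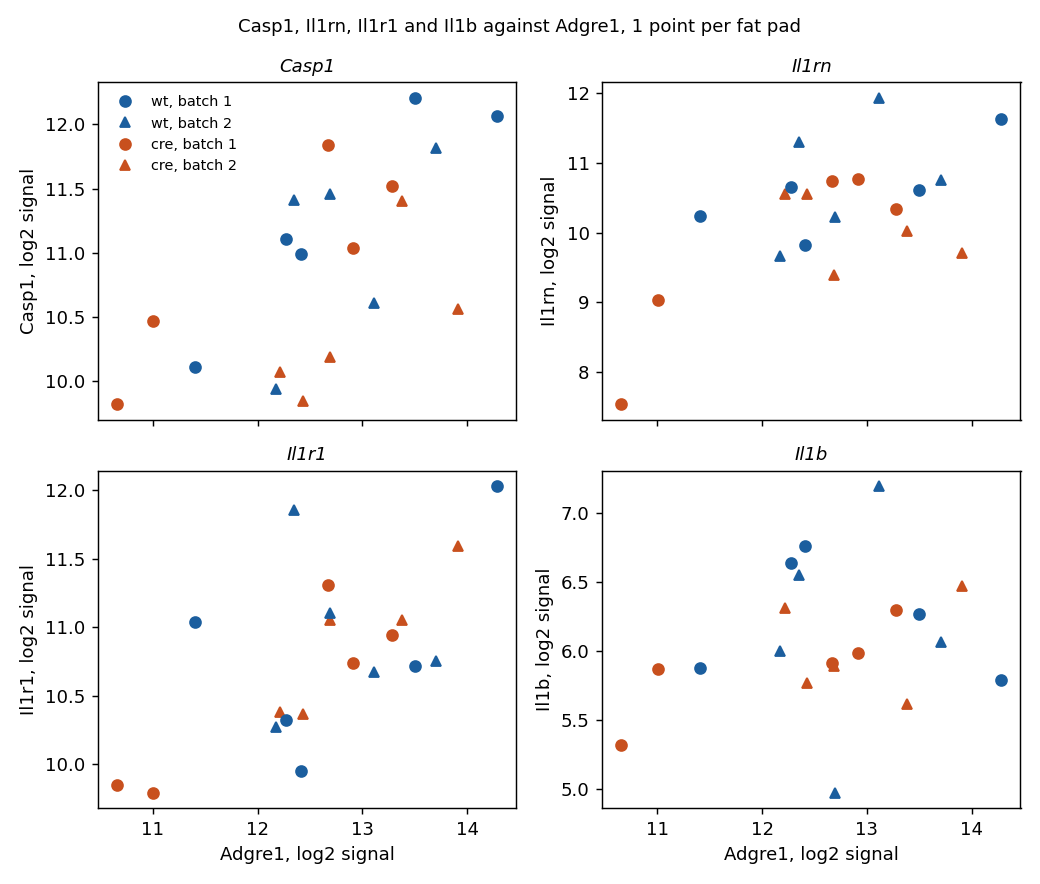
Log2 signal of Casp1, Il1rn, Il1r1 and Il1b (vertical axes) against that of Adgre1 (horizontal axis), 1 point per fat pad, by genotype (colour) and batch (shape). The 2 cre mice lowest in Adgre1, at 10.66 and 11.01, are also the lowest for Il1rn and Il1r1. Il1b did not pass the slope test, with Pearson's r of the residuals at −0.03 in wt and 0.60 in cre mice.

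The other members did not pass the test. Il33 had a slope of 0.34 (SE 0.14, unadjusted p = 0.0252, adjusted p = 0.150), and Nlrp3 0.19 (SE 0.09, unadjusted p = 0.0406, adjusted p = 0.200). For Il18 it was 0.20 (95% interval −0.06 to 0.46) and for Il1b 0.11 (95% interval −0.15 to 0.37). The dim Il1r2 was at 0.09 (95% interval −0.10 to 0.29), and Il1a, the dimmest, at −0.15 (95% interval −0.36 to 0.05). Without cre replicates 9 and 7, Il33 had a slope of 0.56 (limma unadjusted p = 0.00424, adjusted p = 0.0924, r = 0.622). Nlrp3 then had 0.30 (limma unadjusted p = 0.0148, adjusted p = 0.181, r = 0.590). Il18 was then at 0.27, Il1r2 at 0.15, Il1b at 0.008 and Il1a at −0.05. No member's slope was called as different between genotypes, where the smallest unadjusted p was 0.0917 and 3.96% of all other probe sets had one under 0.05. No member was called between batches, with an unadjusted p under 0.05 for 0 of 9 members and 0.572% of all probe sets.

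Genes of several cell lists had called slopes on Adgre1, against 6.26% of all other probe sets called rising and 8.82% in either direction. Of the macrophage list, 14 of the 15 measured genes other than Adgre1 had a called slope on it, all rising, with a median slope of 0.82. Of the mast cell list 6 of 8 genes rose, and the list mean spanned 5.93 to 10.2 in wt and 6.29 to 8.96 in cre mice, highest in wt replicate 5. Of the T cell list 3 of 6 measured genes rose, and of the neutrophil list 1 of 11, a share near that of all probe sets. Of the adipocyte list, 2 of 10 measured genes had a called slope, Retn (−0.77) and Adig (−0.59), both falling, and the median slope was −0.36. Whether macrophages or cells that come with them carried the RNA of Casp1, Il1rn and Il1r1 was not tested.

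The sequence before the first RefSeq start of Casp1 and Il1rn, which rose with Adgre1, is shown with that of Il1b, which did not pass that test, for comparison (GRCm38.p6, 5′ to 3′, outside the gene's annotated span). All 10 listed genes were found in the promoter table. Capitals mark matches, on either strand, to GAGGAA, the core bound by the myeloid factor PU.1, or to TATAAA, the TATA box. No match overlapped another.
Casp1, chr9:5298267-5298516, plus strand: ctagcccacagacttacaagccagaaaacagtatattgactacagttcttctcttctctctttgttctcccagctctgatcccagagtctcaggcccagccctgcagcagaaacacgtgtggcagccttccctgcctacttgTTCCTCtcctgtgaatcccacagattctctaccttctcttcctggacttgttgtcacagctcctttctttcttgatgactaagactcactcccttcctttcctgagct
Il1rn, chr2:24336610-24336859, plus strand: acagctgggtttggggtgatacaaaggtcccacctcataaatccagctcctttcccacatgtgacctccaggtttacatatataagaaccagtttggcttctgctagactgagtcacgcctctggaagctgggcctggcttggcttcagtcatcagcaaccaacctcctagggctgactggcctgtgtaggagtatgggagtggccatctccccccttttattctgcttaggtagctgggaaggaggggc
Il1b, chr2:129371165-129371389, minus strand: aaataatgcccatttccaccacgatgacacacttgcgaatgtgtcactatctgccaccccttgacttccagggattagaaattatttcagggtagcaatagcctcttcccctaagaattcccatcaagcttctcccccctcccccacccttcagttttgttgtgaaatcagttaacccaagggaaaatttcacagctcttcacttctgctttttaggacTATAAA
The Casp1 window held the PU.1 core once, on the minus strand, 108 to 103 bases before the start. It also stood in windows not shown, once in that of Il1a, 41 to 36 bases before the start, and 3 times in the second window of Nlrp3, and neither gene had a called slope. The Il1b window held the TATA box 31 to 26 bases before its start. The stretch shown for Il1b, 225 bases, was cut where the gene's annotated span begins, so it ends with that match. TATAAA also stood in windows not shown, those of Il1a (32 to 27 bases before the start) and Il18 and the first and second of Il33. The Il1rn window shown held neither GAGGAA nor TATAAA. Nor did the windows of Il1rn starts 2 and 3, which lie downstream and are not shown. Which start the measured Il1rn RNA came from was not tested. Over 32817 RefSeq windows of 250 bases, 23.3% held GAGGAA and 12.4% held TATAAA on either strand. A match to the consensus of the factor NF-κB, searched on both strands, was in 3.9% of all windows, in none of the windows shown, in the first of Nlrp3 and in the second of Il1r1. A match is a description of these letters and shows no binding.

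Correlations of residuals after genotype and batch, over the 20 mice and 18540 genes, named the genes most alike in pattern to each member. They are descriptions, since the points share the same fat pads. Casp1 was most like BC028528 (r = 0.947), the growth factor gene Hgf (r = 0.923) and Nostrin (r = 0.922). Il1rn was most like the chemokine gene Ccl9 (r = 0.867), Alox5ap, which encodes the activator of 5-lipoxygenase in leukotriene synthesis (r = 0.852), and the dim Drp2 (r = 0.843). Il1r1 was most like the amino acid transporter gene Slc38a2 (r = 0.930), its chromosomal neighbour Il1rl2, which encodes the interleukin-36 receptor (r = 0.903), and Serinc3 (r = 0.896).

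Il33 was most like the fibroblast cadherin gene Cdh11 (r = 0.877), Slfn8 (r = 0.810) and Set (r = 0.809). Il18 was most like the calcium-binding protein gene Sri (r = 0.834), Arhgap45 (r = 0.793) and Clec3b (r = 0.785). Nlrp3 was most like the actin nucleator gene Spire1 (r = 0.864), the dim Bend6 (r = 0.811) and the antiviral gene Zc3hav1 (r = 0.791). The closest genes were Olfr1395, Olfr988 and Treml4 for Il1b (r = 0.760 to 0.740), Oas1e, Defb43 and Tepp for Il1a (r = 0.806 to 0.775), and Txndc8, Ncoa5 and Haspin for Il1r2 (r = 0.757 to 0.710). Of these genes all but Ncoa5 had means of 3.09 to 4.82, under the 95th percentile of olfactory receptor probe sets (5.59). Among the members themselves the largest r was 0.631, between Il33 and Il1r1. Casp1 stood at 0.586 with Il1r1 and 0.511 with Il1rn but at 0.131 with Nlrp3, and Il1b at −0.45 with Il18 and 0.399 with Il1rn.

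Of 35 other genes of the pathway with a probe set, limma called 0 between genotypes, with an unadjusted p under 0.05 for 3 of them, against 6.29% of all probe sets. A slope on Adgre1 was called for 14 of the 35, all rising, against 6.26% of all other probe sets called rising. Among receptors and soluble inhibitors all 7 were measured, 6 with a lower mean in cre mice and a median log2 difference of −0.16. Il18r1, the ligand-binding receptor chain for interleukin-18, differed by −0.64 (SE 0.23, limma unadjusted p = 0.0102, adjusted p = 0.770). Slopes were called for Il1rap, the shared accessory chain (0.38, adjusted p = 0.0191), and Il18bp, the soluble inhibitor of interleukin-18 (0.34, adjusted p = 0.0308). Of 5 further ligands, Il1f10 alone was measured, with a difference of −0.03.

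Of the genes of receptor signalling 10 of 12 were measured, 8 with a lower mean in cre mice and a median of −0.09. Myd88, the adaptor of these receptors, differed by −0.49 (SE 0.24, limma unadjusted p = 0.0498, adjusted p = 0.792). It also rose with Adgre1 (slope 0.46, adjusted p = 0.00372), as did Peli1, a ubiquitin ligase of the pathway (slope 0.38, adjusted p = 0.0113). Of the inflammasome list 17 of 18 were measured, 13 with a lower mean in cre mice and a median of −0.17. Casp8, which encodes a protease of cell death pathways, differed by −0.43 (SE 0.20, limma unadjusted p = 0.0438, adjusted p = 0.785). Slopes were called for 10 of the 17, led by P2rx7, the ATP-gated channel that triggers the NLRP3 inflammasome (1.05, SE 0.10, adjusted p = 5.64e-07). Naip5 and Naip6, sensors of bacterial flagellin, followed with slopes of 0.59 (adjusted p = 4.06e-05) and 0.58 (adjusted p = 0.000705). At equal Adgre1 P2rx7 differed by 0.05 between genotypes, Naip5 by 0.09 and Naip6 by 0.04.

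**Figure D5:**
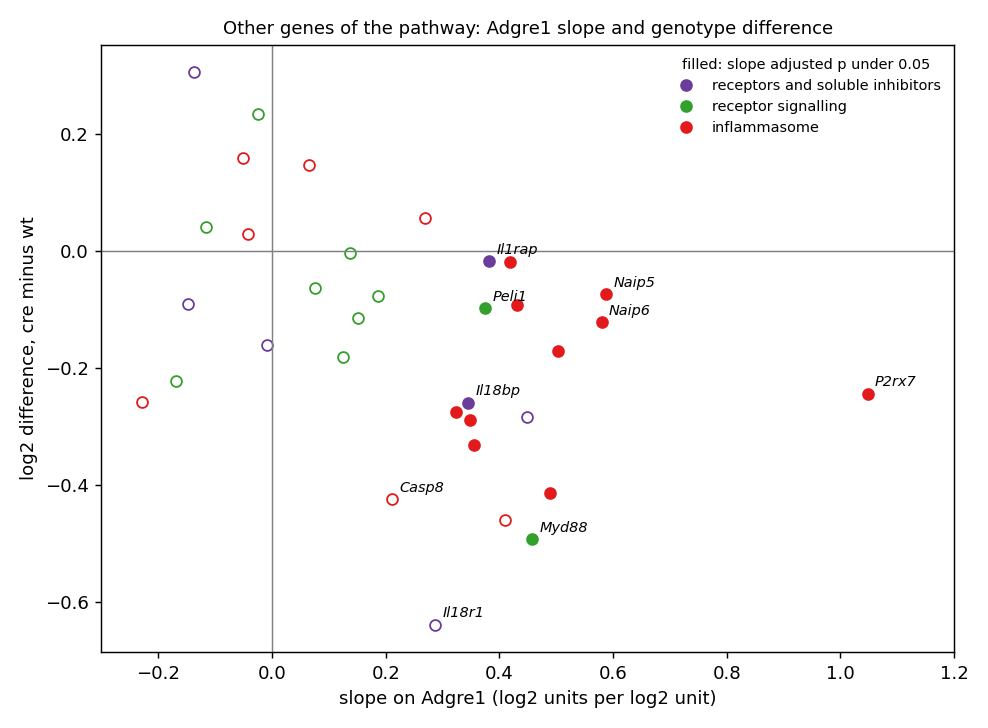
Slope on Adgre1 (horizontal axis, log2 units per log2 unit) and log2 difference of cre minus wt (vertical axis) for each measured gene of 3 pathway lists that is no member, filled where the slope passed the adjusted threshold. P2rx7 stands farthest right at 1.05, and Il18r1 lowest at −0.64.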

How the data were processed

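The authors deposited log2 signals of 22206 probe sets for each of 20 arrays of whole fat pads, 1 per mouse. They name RMA, the mm10 build and Transcriptome Analysis Console 4.0.2.15, per the submitters' processing notes. For filters and a batch adjustment the sources used here give nothing. Low signals hold background, so differences of dim genes are compressed, and the number of mice limits the precision. Genotype, batch and replicate number came from the sample titles.

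Tests between genotypes used lmFit and eBayes of limma 3.58.1 (R 4.3.3) on a model of genotype and batch, adjusted by Benjamini-Hochberg over all probe sets at a threshold of 0.05. Adgre1 was added as a covariate, and its own probe set was then left out of the adjustment. Differences are cre minus wt. Single genes were also tested by exact permutation within batches (63504 regroupings), and correlations by 100000 permutations within genotype and batch. The selection stated for the study was a fold of at least 1.5 with an unadjusted p under 0.05. The fit was tested on simulated data. Python 3.11.15, NumPy 2.4.6, pandas 2.3.3 and matplotlib 3.10.9 were used. Promoter sequences and gene positions came from RefSeq (GRCm38.p6).

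All members were named, with Adgre1 and Tnf for reference. Named beside them were the 3 genes most alike in residuals (Gm and Rik genes left out) and, of each pathway list, up to 3 with an unadjusted p under 0.05 and up to 3 with a called slope, smallest p first. The members, lists and rules were chosen with earlier results of these data known. Same-numbered wt and cre mice did not deviate together as a rule (correlations of 10 pairs −0.303 to 0.339, 4 over 0.1). Of the 10 wt mice, 4 were most like the cre mouse of their own number among those of their batch. The titles name no pairs, and the numbers were not used as pairs in the main tests. Alternatives were no batch term, each batch or genotype alone, the number as a block, another prior, a filter on dim probe sets, other normalizations, array weights, probe set means, the macrophage list in place of Adgre1 and leaving out each mouse. Leaving out the 3 mice set apart, or the 2 farthest from the median of Adgre1, was chosen after seeing the data.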

Additional observations from a re-analysis of the deposited data

Results flagged for a closer look

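Nlrp3 in cre replicate 4 stood away from the other 9 cre mice, at a log2 signal of 6.414 against a cre median of 5.69. It was the single flag among 18 groups of 10 mice, and chance flags about 1 in 20 groups. The highest wt mouse lay above it, at 6.69. That mouse was also the highest cre mouse for Adgre1, at 13.9, and for Il1b, at 6.48.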

How the results depend on the processing

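Of 906 recomputed values, 812 kept direction and side of the threshold, 32 lost their call and 62 changed sign. All 32 were slopes of Casp1, Il1rn or Il1r1, the only 3 member results with a call in the main fit. The other values had no call to lose. The cause was not tested. No member was called between genotypes, at equal Adgre1, between batches or by an interaction with genotype under any alternative run. Members called by their slope on Adgre1 numbered 0 in batch 2 alone and in wt mice alone. They numbered 1 after quantile normalization again, with array weights, without the 2 mice farthest from the median of Adgre1 (Casp1 each time) and with the replicate block (Il1rn), and 1 to 3 when 1 mouse was left out. The stated selection held 0 members at 2-fold, in either batch alone and without those 2 mice, 2 without the 3 mice set apart, and 0 to 2 when 1 mouse was left out. Probe sets called between genotypes numbered 0 in either batch alone and with the replicate block, 2 without the 3 mice set apart, and 1 to 2 when 1 mouse was left out. The replicate block changed no other call of a member than those of Casp1 and Il1r1, whose slopes had adjusted p of 0.0627 and 0.275. Under the block Il1rn differed between genotypes by −0.82 (limma unadjusted p = 0.0151, adjusted p = 0.830). At equal Adgre1 it differed by −0.64 (limma unadjusted p = 0.00412, adjusted p = 0.764).

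Genotype differences became −0.33 for Il1a in batch 2 and −0.025 without the 2 mice, 0.0065 for Il1r1 with array weights and 0.056 without the 2 mice, 0.060 for Il1r2 in batch 1 and 0.048 for Nlrp3 in batch 2. At equal Adgre1 they became, in batch 1, 0.082 for Casp1, 0.14 for Il18, 0.021 for Il1r1 and 0.17 for Il1r2, and in batch 2 −0.32 for Il1a. With the macrophage list they were 0.036 for Il18, −0.0003 for Il1a, 0.058 for Il1r1, 0.028 for Il1r2 and 0.014 for Il33. Il1r1 was also at 0.047 with array weights, 0.12 without the 3 mice set apart and 0.0066 without the 2, where Il1a was −0.018, and Il1r2 was 0.0090 under the block and 0.015 without the 3. Slopes turned for Il1a (0.031) and Il1b (−0.040) in wt mice, and for Il1r2 in batch 2 (−0.083) and cre mice (−0.027). With 1 mouse left out, differences spanned −0.022 to 0.16 for Il1a, −0.11 to 0.050 for Il1r2 and −0.16 to 0.019 for Nlrp3, and without a change of sign −0.41 to −0.15 for Il1b, −0.95 to −0.56 for Il1rn, −0.20 to −0.0011 for Il18, −0.32 to −0.042 for Il33, −0.26 to −0.013 for Il1r1 and −0.64 to −0.37 for Casp1. At equal Adgre1 they spanned −0.14 to 0.13 for Il18, −0.031 to 0.12 for Il1a, −0.14 to 0.11 for Il1r1, −0.091 to 0.095 for Il1r2, −0.22 to 0.026 for Il33 and −0.10 to 0.026 for Nlrp3. The filter left out 7402 probe sets, Il1a among them, which has no value there. Background limits Il1a most, then Il1r2, Nlrp3 and Il1b.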
